A study of Homo sapiens with 10 samples.

Results

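HOX cluster genes were followed through the hepatic differentiation of human embryonic stem cells (hESCs) of the established line H1. They were taken as every gene whose name starts with HOXA, HOXB, HOXC or HOXD, antisense and noncoding genes of the clusters included, and 3 of the 12125 genes analysed met this rule. These were HOXB3, HOXB6 and HOXC8, all protein-coding, and no gene of the table met it by its Ensembl identifier alone. The other 36 of the 39 human HOX protein genes were not among these 12125 genes and could not be analysed. RNA was sequenced daily from day 0 to day 3, every other day from day 5 to day 13, and at day 21, in 1 library each, so that every difference between days is a difference between single libraries and none carries a p-value. Day 0 was untreated hESCs. Activin A at 100 ng per ml was given for days 1 to 3, labelled early definitive endoderm (DE) and DE, followed by BMP2 at 20 ng per ml with FGF4 at 30 ng per ml for days 5 and 7, and by HGF and KGF at 20 ng per ml each for days 9 and 11, all labelled as hepatoblasts. Days 13 and 21 were labelled hepatocyte-like with Oncostatin M (OSM) at 20 ng per ml, although by the lengths of the steps in the culture protocol day 13 closes the HGF and KGF step.

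HOX genes encode homeodomain transcription factors that give cells along the head-to-tail axis of the embryo their position. They lie in 4 clusters on different chromosomes, and genes at the same place in each cluster form a paralogue group, numbered from 1 for the most anterior to 13 for the most posterior. Low-numbered genes are as a rule switched on earlier and closer to the head than high-numbered genes. Stem cells keep the clusters silent through Polycomb proteins, and retinoic acid, CDX factors, FGF and WNT signals open them. The liver arises from the anterior gut endoderm next to heart and septum transversum mesoderm, and in the gut HOX genes are known above all from the surrounding mesenchyme and from more posterior endoderm.

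HOXB3 (ENSG00000120093) is listed at chr17:46626232-46631284 (minus strand), and HOXB6 (ENSG00000108511) at chr17:46671639-46682354 (minus strand), 40.4 kb away. HOXC8 (ENSG00000037965) is listed at chr12:54402832-54407570 (plus strand). The table does not name the build of these intervals, and hg19 is the human build in the submitters' processing notes. The HOXB3 interval of 5053 bases is as wide as 1 of its 13 GENCODE transcripts, whereas the whole gene spans 56043 bases in GRCh38. The intervals of HOXB6, of 10716 bases, and HOXC8, of 4739 bases, match the width of no GENCODE transcript and are wider than the genes there, which span 9242 and 3257 bases. In GENCODE, 433 exonic bases belong to HOXB3 and HOXB6 at once, which is 16.6% of those of HOXB6. Antisense genes overlap 16.3% of the exonic bases of HOXB6 and 5.27% of those of HOXB3, and none of those of HOXC8. Whether strand was used in counting is not given in the sources used here, so reads of HOXB3, HOXB6 and HOXB-AS3 may have been assigned to one another, and the values of the HOXB genes are uncertain in that respect.

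The values are GC-normalized scores, whole numbers made by the authors, and not read counts. The totals of the libraries lay between 2330948 and 2362740, their medians at 81 or 82 and their maximum at 18734, so that depth cannot be read from them. No gene of the table reached 26 in fewer than 2 libraries. HOXB6 met this limit in exactly 2 libraries, HOXC8 in 3 and HOXB3 in 4, and all of these were libraries of day 9 or later. The members therefore stand in the table because of their late values, and that they were higher late than early is a description and not support for a change. To show how far single libraries lie apart, the standard deviation (SD) of the difference of log2(value + 1) between days 9 and 11, which share a medium, was taken. It was taken over the 500 genes nearest to the mean level of the 2 days compared. This SD does not measure the spread between days that lie further apart or in different media. Where the stages were checked against their markers, the pluripotency gene POU5F1 had a value of 4861 at day 0 and 11 at day 13, the DE gene SOX17 had 2 at day 0 and 790 at day 3, and the hepatic gene HNF4A was listed at 0 at day 0 and had 1044 at day 7.

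All 3 HOX genes were listed at 0 in hESCs and through the whole Activin A step, and all were highest at day 13. Of all genes, 0.685% were listed at 0 on each of days 0, 1, 2 and 3, or 83 genes, and 8.19% were highest at day 13. Among those 83 genes, 36.1% were highest at day 13 and 34.9% at day 21. In bulk RNA, a low value cannot tell fewer cells that express a gene from less RNA in each cell.

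HOXB3, of paralogue group 3, patterns the hindbrain and the pharyngeal region. It was listed at 0 on days 0, 1, 2 and 3 and on days 5, 7, 9, 11, 13 and 21 its values were 2, 8, 28, 51, 88 and 87. Each day up to day 13 was thus at or above the one before it, and the last 2 libraries were nearly the same. From day 7 to day 13 the value was 11.0-fold higher, a difference of 3.31 in log2(value + 1). The SD between days 9 and 11 was 0.51 for genes near the mean level of these 2 days. Around the lower values of days 5 and 7 it was 1.48. The difference from day 13 to day 21 was -0.02, within the SD of 0.33. Between later days, the difference of 0.84 from day 9 to day 11 was under 2 SD (SD 0.48), and that of 0.78 from day 11 to day 13 was just over 2 SD (SD 0.35).

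HOXC8, of paralogue group 8, is a gene of the brachial and thoracic levels of the trunk. It was listed at 0 in 6 libraries, those of days 0, 1, 2, 3, 5 and 7, and on days 9, 11, 13 and 21 its values were 22, 58, 109 and 48. Its values began later than those of the HOXB genes and made a peak. Only 0.099% of all genes, 12 in number, were listed at 0 in all of these 6 libraries. No fold is given against libraries listed at 0. From day 9 to day 13 HOXC8 was 4.95-fold higher, a log2 difference of 2.26 (SD 0.48). At day 21 it had 0.44 of its day 13 value, a log2 difference of -1.17, more than 3 times the SD of 0.35 between days 9 and 11. A fall of at least 1 was common over this longer interval. It was seen in 9.08% of all genes tested, beside 0.568% from day 9 to day 11.

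HOXB6, of paralogue group 6, is known from lateral plate mesoderm and from blood progenitors. With a highest value of 34 it stayed under the level of 50 used below, and it is named here after its values were seen. It was listed at 0 on days 0, 1, 2 and 3, and on days 5, 7, 9, 11, 13 and 21 its values were 2, 8, 33, 24, 34 and 21. Its values on days 5 and 7 were those of HOXB3, and from day 9 on it stayed between 21 and 34 while HOXB3 went on to higher values. From day 7 to day 9 it was 4.12-fold higher, a log2 difference of 1.92 (SD 0.64). The later differences were all under 2 SD, with -0.44 from day 9 to day 11 (SD 0.46), 0.49 from day 11 to day 13 (SD 0.45) and -0.67 from day 13 to day 21 (SD 0.48).

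**Figure D1:**
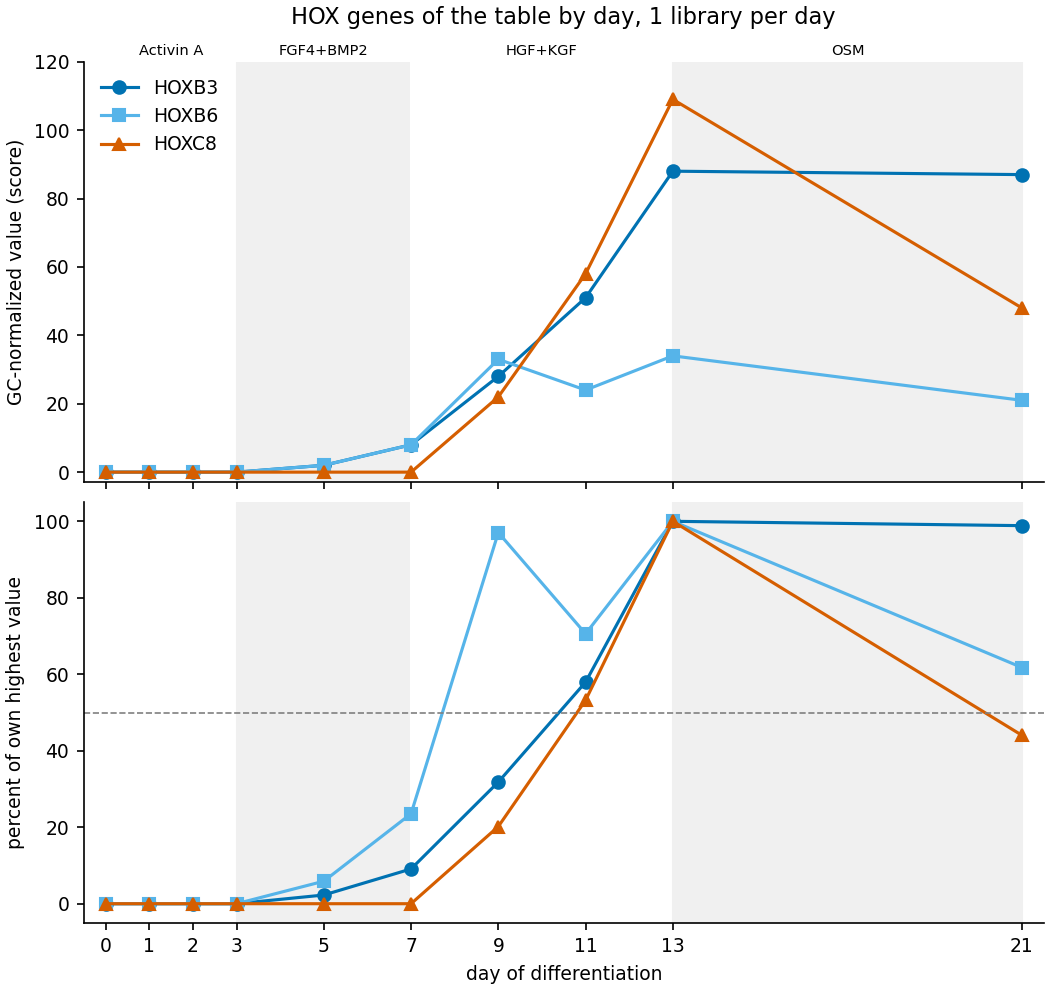
The upper panel plots the GC-normalized value of each HOX gene against the day of differentiation, and the lower panel the same values as a percent of the gene's own highest value, with 1 library per point and the medium of each step named at the top by the culture protocol. All 3 genes lie at 0 up to day 3 and are highest at day 13, and at day 21 HOXB3 has 98.9%, HOXB6 61.8% and HOXC8 44.0% of the highest value.

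Genes were counted as changed between 2 days where log2(value + 1) differed by at least 2, which is 4-fold for high values, and the larger value was at least 50. HOXB3 and HOXC8 could pass this limit and HOXB6 could not. From day 7 to day 13, 2 of the 2 members tested were higher, HOXB3 and HOXC8, while 3.08% of all genes tested were higher and 2.46% lower. The median difference of all genes tested was -0.05 over these days. HOXB6 lay just outside the limit on the log2 scale, with a difference of 1.96. From day 0 to day 21, 1 of 1 member tested was higher, HOXB3, beside 11.9% of all genes (11.5% were lower), and HOXC8 was left out by its day 21 value of 48. Where a larger value of 20 was enough, 2 of 3 members were higher from day 7 to day 13, beside 3.28% of all genes, and all 3 members were higher at day 21 than at day 0, beside 11.4% of all genes. No member was counted from day 0 to day 3, where 3.94% of genes were higher and 2.16% lower, or from day 3 to day 7, where 5.63% were higher and 4.41% lower, since no HOX value had reached 50. None was counted in either direction from day 13 to day 21, where 2.28% of genes were higher and 1.62% lower, or from day 9 to day 11, where 0.107% were higher and as many lower.

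**Figure D2:**
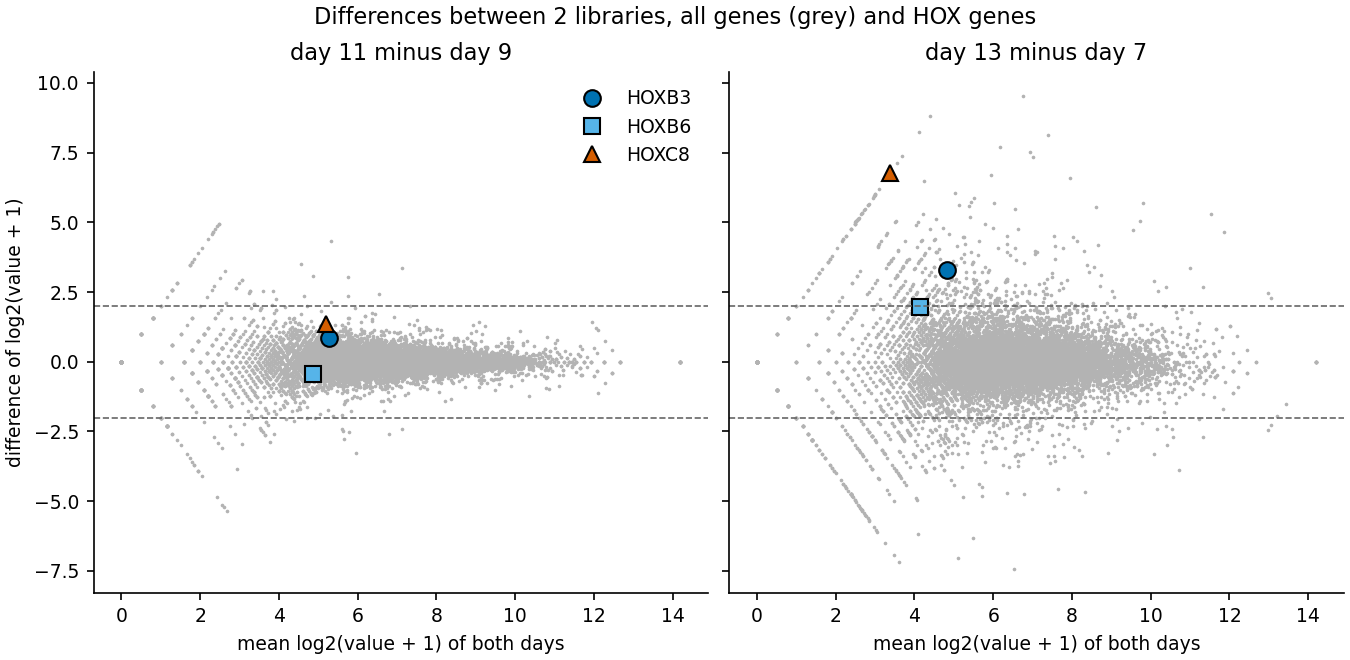
Each grey point is 1 gene, plotted by its mean log2(value + 1) in 2 libraries and the difference between them, for days 9 and 11 on the left and days 7 and 13 on the right, and dashed lines mark differences of 2 and -2. HOXB3 and HOXC8 lie above the upper line only in the right panel, where HOXB6 lies just under it at 1.96.

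The design asks for a comparison of clusters and of positions within them. By cluster, 2 of 10 HOXB and 1 of 9 HOXC protein genes were analysed, and none of the 11 HOXA or 9 HOXD genes. By position, 1 of 12 genes of groups 1 to 4 (anterior), 2 of 11 of groups 5 to 8 (central) and 0 of 16 of groups 9 to 13 (posterior) were analysed. The anterior genes could not be compared with the posterior genes, and the comparison below is that of HOXB3 with HOXB6 and HOXC8. The values are not per length, so levels were not ranked between the genes and only the course of each was compared.

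From day 9 to day 13 the median difference of log2(value + 1) was 0.83 over the HOXB genes, made up of 1.62 for HOXB3 and 0.04 for HOXB6, and 2.26 for HOXC8. Over these days the members of the HOXB cluster thus lay further apart from each other than HOXB3 did from HOXC8. From day 13 to day 21 this was reversed. HOXB3 was at -0.02 and HOXB6 at -0.67, with a HOXB median of -0.34, and HOXC8 stood at -1.17. By position, the anterior member HOXB3 was at -0.02 over these last days, whereas the median of the central members was -0.92. The ratio of HOXB3 to HOXB6 within a library was 1.00 on days 5 and 7, and on days 9, 11, 13 and 21 it was 0.848, 2.12, 2.59 and 4.14, which shows unequal courses for the HOXB genes analysed. The ratio of HOXB3 to HOXC8 on the same 4 days was 1.27, 0.879, 0.807 and 1.81.

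The order of appearance depended on how it was read. By the first library above 0, HOXB3 and HOXB6 came at day 5 and HOXC8 at day 9, which is the order of the paralogue numbers with a tie. By the first library with at least 50% of the gene's own highest value, HOXB6 came at day 9 and HOXB3 and HOXC8 at day 11. Of all genes, 4.21% came at day 9 or 11 by this measure, and of the 83 genes listed at 0 up to day 3, 36.1% did, while 30.1% came at day 5 or 7 and 33.7% at day 13 or 21. By 25% of the highest value, HOXB3 and HOXB6 came at day 9 and HOXC8 at day 11, and by a value of at least 20 all 3 came at day 9. Values of 2 and 8 are in the range where libraries differ most, with an SD of 1.48 between days 9 and 11 around the HOXB values of days 5 and 7. Over the 10 libraries log2(value + 1) of HOXB3 had a Pearson correlation of 0.977 with HOXB6 and of 0.932 with HOXC8, and HOXB6 of 0.886 with HOXC8. These are descriptions, since the points are days of 1 course and 4 of them are at 0 in all members.

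The genes nearest to the clusters in the table did not share this course. The 3 nearest genes on each side of the HOXB genes and of HOXC8, 12 in all and between 151 and 487 kb away, had values above 0 in every library. Of all genes only 0.685% were listed at 0 on each of days 0, 1, 2 and 3. A start at 0 was thus rare in general, and its absence does not set the neighbours apart. Their highest value was between 1.18 and 6.70 times their lowest. Between days 7 and 13, 0 of the 12 differed by 2 or more in log2(value + 1). With no limit on low values, 3.37% of all genes were higher and 3.37% lower by this difference, so that a count of 0 is near the share of all genes. Next to the HOXB genes, SNX11, a sorting nexin, went from 86 at day 3 to 32 at day 13, and CALCOCO2, an autophagy receptor, from 62 to 147. Next to HOXC8, SMUG1, a DNA repair enzyme, had 72 on both days, and CALCOCO1 had 94 and 248. The largest ratio was that of HNRNPA1, an RNA-binding protein gene that held the maximum of the scale up to day 5. Of the longer list of genes that flank all 4 clusters, 11 of 18 were analysed and 0 of 11 were counted from day 7 to day 13, beside 3.08% of all genes higher and 2.46% lower, a count near the share of all genes.

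**Figure D3:**
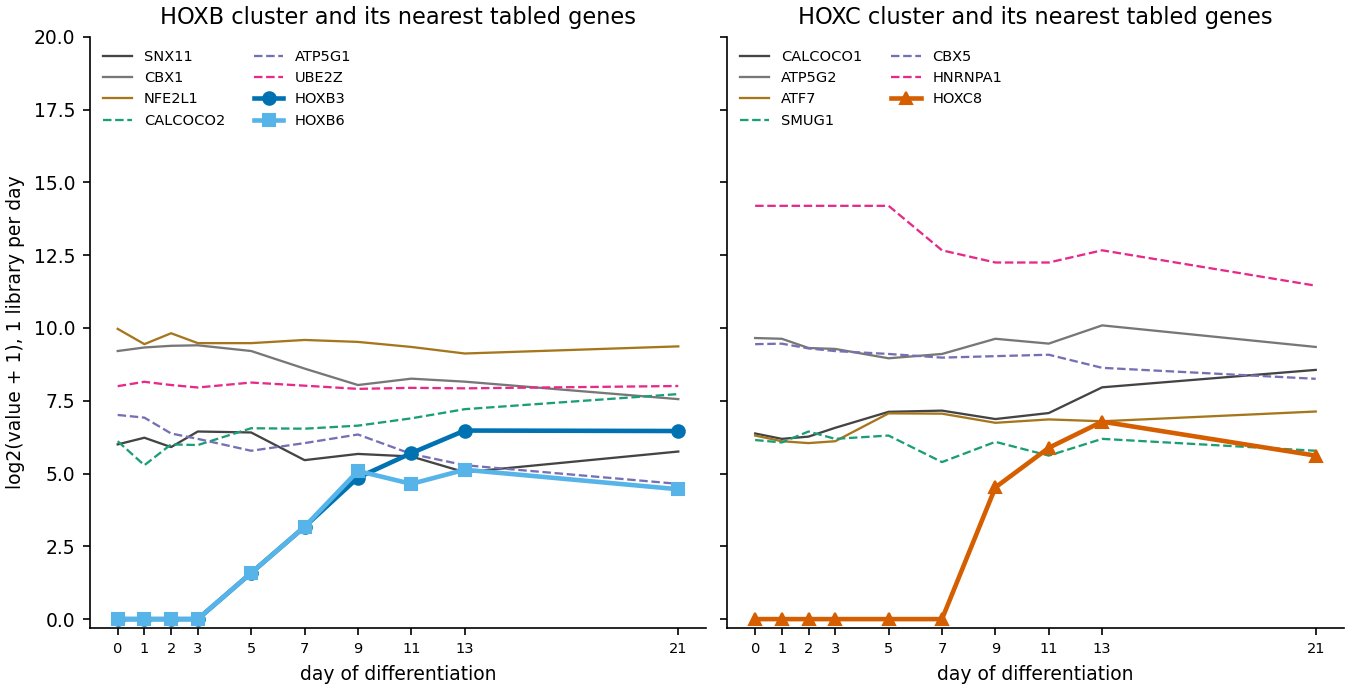
The lines show log2(value + 1) by day, with 1 library per day, for HOXB3 and HOXB6 with the 6 nearest genes of the table (left) and for HOXC8 with its 6 (right), solid for genes at lower and dashed for genes at higher coordinates. The HOX genes start at 0 and have their highest values at day 13, while all 12 neighbours are above 0 throughout.

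HOX proteins bind DNA together with cofactors of the TALE class, and 10 of 11 listed genes of this class were analysed. MEIS2 was the TALE gene counted higher from day 7 to day 13, 1 of 7 tested, beside 3.08% of all genes, and none was lower. It was at 0 on days 1 and 2 and at 2 on days 0 and 3, and on days 5, 7, 9, 11, 13 and 21 its values were 11, 20, 59, 72, 123 and 60. MEIS1 was listed at 0 on days 0, 1 and 3 and had 1 at day 2, 26 at day 7, then 32 at day 13 before 56 at day 21. Other cofactors were present before any HOX gene. PBX2 lay between 400 and 733 throughout, and PBX3 had 82 at day 0 and 6 at day 21. From day 0 to day 21, 2 of 9 TALE genes tested were counted higher, MEIS1 and MEIS2, beside 11.9% of all genes, and 1 was lower, PBX3, beside 11.5%. MEIS3 was highest at day 3, with 488, when all HOX values were at 0, and had 128 at day 13. The median difference of the 7 genes tested from day 7 to day 13 was -0.14. Any bearing of the cofactors on the HOX values was not tested.

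CDX2, a ParaHox factor that activates HOX genes in the posterior embryo and marks mid- and hindgut, was the 1 gene analysed of 6 ParaHox genes. It was listed at 0 on days 0 to 3 and on days 5, 7, 9, 11, 13 and 21 its values were 48, 116, 136, 138, 197 and 162. Its first library above 0 was the same as that of HOXB3 and HOXB6, but it had reached 50% of its highest value by day 7, before each HOX gene. It was counted higher from day 3 to day 7 and not from day 7 to day 13, where its difference was 0.76. A link between CDX2 and the HOX values was not tested.

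Retinoic acid is a known inducer of anterior HOX genes, and 11 of 16 listed genes of its synthesis, binding, breakdown and receptors were analysed. The list moved in both directions. From day 3 to day 7, 2 of 10 tested were higher and 3 lower, beside 5.63% and 4.41% of all genes. ALDH1A1, a retinaldehyde dehydrogenase, went from 52 at day 3 to 876 at day 7, the last library before HOXC8 was above 0, and had 96 at day 13 and 416 at day 21. From day 13 to day 21, over which HOXC8 went from 109 to 48, ALDH1A1 and ALDH1A3 were counted higher, 2 of 8 tested, beside 2.28% of all genes. CYP26A1, which breaks down retinoic acid, had 3434 at day 3 but 51 at day 7 and 4 at day 13. DHRS3, which reduces retinaldehyde, had 8 at day 3, 91 at day 7 and 175 at day 11. From day 7 to day 13, CRABP2, which carries retinoic acid to the nucleus, was the 1 gene counted higher of 8 tested, from 63 to 371, and its value at day 21 was 123. ALDH1A1 and CYP26A1 were the 2 counted lower, where 3.08% of all genes were higher and 2.46% lower, and the median difference of the 8 was 0.20, beside -0.05 for all genes. Among the receptors, RARA had 60 at day 3 and 86 at day 13, RXRA 196 and 460, and RARG 166 and 24. Whether any of the retinoic acid genes bears on the HOX values was not tested.

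Of 21 listed Polycomb and KMT2 genes and their partners, 18 were analysed, and from day 7 to day 13, when HOXB3 and HOXC8 were counted higher, 0 of 16 tested were counted in either direction, beside 3.08% of all genes higher and 2.46% lower, so that a count of 0 is near the share of all genes. Their median difference was -0.10. From day 0 to day 3, 1 of 15 was higher (KDM6B) and 1 lower (PHC1), beside 3.94% and 2.16% of all genes, and from day 3 to day 7, 1 of 16 was lower (PHC1), beside 4.41%. From day 0 to day 21, 3 of 15 were higher, beside 11.9% of all genes, and 4 were lower, beside 11.5%. Lower were EZH2, the catalytic subunit that methylates histone H3 (99 at day 0 and 16 at day 21), its partner JARID2 (712 and 111), CBX2 (582 and 31), which binds that mark, and PHC1 (6494 and 203). PHC1 had come down to 703 by day 3, when no HOX gene was above 0. Higher were BMI1 (12 and 80), PHC2 (37 and 268) and KDM6B, a demethylase of the Polycomb mark (30 and 251). The part of these genes in the HOX values was not tested.

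Markers of several cell types were higher on later days, as the HOX genes were, but some had risen before them. The part of these cell types in the HOX values was not tested. Of 6 listed genes of lateral plate and splanchnic mesoderm, 4 were analysed, and their summed value lay between 3 and 14 on days 0 to 3, was 308 at day 7 and lay between 443 and 1259 on days 9 to 21, highest at day 13. FOXF1, which marks the mesenchyme of gut and liver, was listed at 0 on days 0 to 5, and on days 7, 9, 11, 13 and 21 its values were 12, 78, 125, 154 and 98. HAND1 had 2 at day 3, and on days 7, 9, 11, 13 and 21 its values were 226, 890, 822, 980 and 276. Of 11 genes of liver mesenchyme and stroma, 6 were analysed, and their sum lay between 172 and 358 on days 0 to 3. It was 613 at day 5 and 4252 at day 7, and lay between 12027 and 22531 on days 9 to 21, highest at day 21. From day 3 to day 7, 4 of 5 tested were counted higher, beside 5.63% of all genes. From day 7 to day 13, 3 of 6 were, beside 3.08%. LUM, a matrix proteoglycan, was the one of the 6 stroma genes listed at 0 up to day 3. The 4 endothelial genes analysed of 5 had a sum between 310 and 584 on days 0 to 3 and between 768 and 1924 on days 9 to 21, highest at day 13. The 4 blood genes analysed of 6 had a sum of at most 39 up to day 7 and of 3462 at day 13, of which the embryonic globin HBE1 made up 2968, with HBZ and CD68 at 0 on days 0 to 3.

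The hepatic markers, all 6 of which were analysed, had a sum between 39 and 119 on days 0 to 3, 28184 at day 7 and 64966 at day 21. AFP from day 7, TTR from day 9 and SERPINA1 at day 21 were at the maximum of the scale. Any higher level of these genes would not show in the sums. AFP reached the maximum of the scale at day 7, when HOXC8 was still at 0, and ALB went from 168 at day 13 to 4866 at day 21, when HOXC8 was lower. SERPINA1 was listed at 0 on days 0 to 3, as the HOX genes were, and had 56 at day 7, 2640 at day 13 and 18734 at day 21. From day 7 to day 13, 2 of 6 hepatic genes tested were counted higher, TTR and SERPINA1, beside 3.08% of all genes, and none was lower. AFP, at the maximum on both days, could not be counted higher. None of the 7 listed genes of hindbrain and spinal cord was among the 12125 genes, so a neural source of HOX RNA could not be described. Of the pluripotency genes, the sum was 11226 at its highest before day 5 and 94 at day 21.

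**Figure D4:**
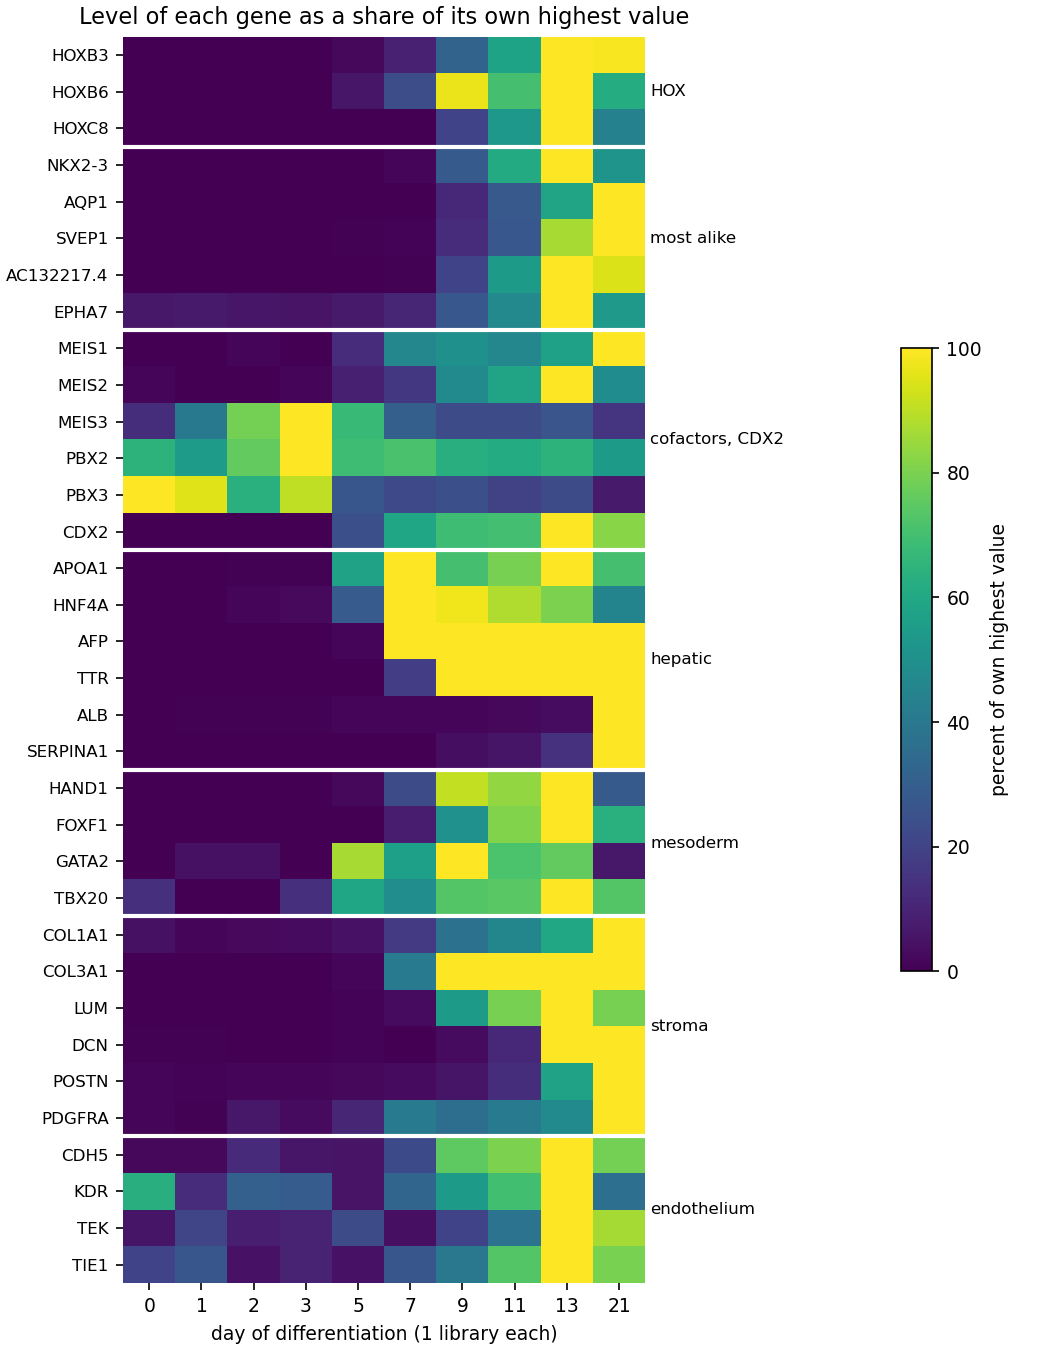
Colour gives the value of each gene in each library as a percent of the gene's own highest value, with days in columns and genes in rows, in blocks for HOX genes, the genes of most similar course, cofactors with CDX2, and marker lists. The HOX block is dark up to day 7 except for HOXB6 at 23.5%, and brightest at day 13, as are FOXF1, HAND1 and MEIS2. AFP and HNF4A have reached their highest value by day 7, and ALB and SERPINA1 have theirs at day 21.

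The genes whose course over the 10 libraries was most like the mean of HOXB3 and HOXC8 were found by Pearson correlation of log2(value + 1) over 10744 other genes with a highest value of at least 50. Of these, 445 had a correlation of at least 0.9. The first 5 were NKX2-3 (0.995), AQP1 (0.995), SVEP1 (0.992), AC132217.4 (0.992) and EPHA7 (0.988). NKX2-3, a homeobox factor of gut and spleen mesenchyme, was listed at 0 up to day 5, and on days 7, 9, 11, 13 and 21 its values were 1, 18, 39, 64 and 33. Its difference from day 13 to day 21 was -0.94 (SD 0.45). EPHA7, an ephrin receptor, also had its highest value at day 13, with 1048, beside 55 at day 3 and 568 at day 21. AQP1, a water channel, and SVEP1, a matrix protein, went on to higher values at day 21, from 1638 to 2796 and from 2431 to 2798. NKX2-3 and EPHA7 thus shared the day 13 peak of HOXC8, and AQP1, SVEP1 and the clone-named AC132217.4, with 1638 at day 13 and 1554 at day 21, did not come down with it.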

How the data were processed

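Bulk RNA-seq libraries of H1 hESCs on 10 days of hepatic differentiation, 1 per day, were analysed. The authors estimated transcript abundance with RSEM (version 1.2.17), run on Bowtie2 (version 2.2.0) alignments, and corrected it for GC content by EDASeq (version 2.0.0). The transcriptome is given as mm10 with Ensembl release 76, although the genes of the table are human. The submitters' processing notes name both hg19 and mm10, with no role, and the table names no build. The deposited values are scores, whole numbers with nearly the same distribution in every library, so depth is unknown and no interval from counts is given. Columns were matched to days by name and sample title, and 0 columns were left unused.

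Differences of log2(value + 1) were computed with Python 3.11.15, numpy 2.4.6 and pandas 2.3.3, and plots with matplotlib 3.10.9. With 1 library per day no test was made. The calling of changed genes was tested on simulated counts with mean levels of at least 50. That does not bear on the HOX values, which are scores and not counts and lie lower in most libraries. Members with a highest value of at least 50 are given in full, HOXB6 was added after its values were seen, and other genes named are list members, the genes next to the clusters, chosen by position after the data were examined, and the 5 of most similar course. Members and lists were chosen with earlier results of these data known. Overlaps and transcript widths are from GENCODE release 29 (GRCh38). Sequences of the members and 1 cofactor are not reported here. Alternatives were other pseudocounts, limits on low values, thresholds, scalings, averages and onset rules.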

Additional observations from a re-analysis of the deposited data

How the results depend on the processing

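No paired analysis was possible because each day has 1 library. The depth of each library is unknown, since the authors give only an average. Of 136 alternative values computed, 125 stayed within 1.5 times the count, within the SD between days 9 and 11, or on the same day. Many of these could not move, so the count does not measure robustness. All HOX values were 0 on days 0 and 3, and a mean equals a median over sets of 1 or 2 genes. Without a limit on low values, 2 HOX genes were counted higher at day 7 than at day 3, in place of 0, beside 6.61% of all genes. Where the larger value had to be 200, the counts from day 7 to day 13 and from day 0 to day 21 were 0, since no HOX value reaches that level. With a limit of 20 and without a limit, 3 were higher at day 21 than at day 0, in place of 1, and with libraries scaled by the median of ratios 2 were, HOXC8 passing 50. That scaling moved the median difference of all genes over these days from -0.106 to 0.128. With a difference of at least 1, 1 HOX gene was higher at day 11 than at day 9, beside 1.04% of all genes, and 1 was lower at day 21 than at day 13, beside 9.08%, HOXC8 in each case. At 25% of the highest value the first day of HOXB3 was 9 in place of 11, and by a value of at least 20 the first day of HOXB3 and of HOXC8 was 9. For pathway lists, alternatives were chosen after seeing the data, and their counts did not move by over 1.5 times from day 7 to day 13. No noncoding HOX gene was analysed here, so including such genes gave the same values, as did moving group 4 to the central genes.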

Other observations

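Other homeobox genes were seen among the 83 genes listed at 0 on days 0 to 3, and they are given here as values, chosen after these were seen. PITX1, known from the hindlimb and the first pharyngeal arch, had values of 242, 173, 106, 70, 80 and 76 on days 5, 7, 9, 11, 13 and 21, so that it was highest when HOXB3 and HOXB6 had values of 2. ISX, a factor of intestinal epithelium, had values of 8, 44, 72, 72, 86 and 22 on those days, and was highest in the same library as the 3 HOX genes.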
